A study of Homo sapiens with 9 samples.

Results

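Cholesterol synthesis, its control by the SREBP transcription factors, and the uptake and export of sterols were followed through 32 genes in the cell line MDA-MB-231, which came from a triple-negative breast tumour and has mesenchymal character. The genes were chosen by name from these pathways, with earlier results of these data known. All 32 were found among the 58395 gene rows of the files and were among the 16575 genes with enough counts to be tested. The cells were grown in DMEM with fetal bovine serum and were studied 96 h after reverse transfection of an siRNA. Of the 9 RNA-seq libraries, 3 came from cells given the first SKP2 siRNA (SKP2-1), 3 from cells given the second (SKP2-2) and 3 from cells given a nontargeting control siRNA (NC). All 3 groups were therefore transfected, and no untransfected cells are among them. The labels do not say whether the replicates are separate cultures, so p-values measure the spread between these libraries, which may be technical.

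The series is titled for SKP2, the F-box protein of an SCF ubiquitin ligase, whereas the zinc transporter ZIP7, encoded by SLC39A7, is named in its design text. SKP2 was 3.51, 3.31 and 3.91 CPM (normalized counts per M gene counts) in replicates 1 to 3 of SKP2-1 and 6.09, 5.69 and 6.11 CPM in SKP2-2, against 57.5, 63.8 and 64.9 CPM in NC. It was thus 17.3 times lower with SKP2-1 and 10.4 times lower with SKP2-2 (edgeR adjusted p = 8.64e-12 and 5.35e-12), while SLC39A7 passed the threshold with neither siRNA (adjusted p = 0.936 and 0.0868). The libraries held 35.5 to 49.9 M gene counts. On the third principal component (11.6% of the variance) NC replicate 1 and SKP2-2 replicate 3 lay at one end, and NC replicate 3 and SKP2-2 replicate 1 at the other. VIM and CD44, genes of mesenchymal breast lines, stood at 2734 ± 92.2 and 764 ± 31.9 CPM in NC, and the luminal factor FOXA1 at 0.503 ± 0.132 CPM (SD, n = 3), though the keratin genes KRT8 and KRT18 were at 339.9 and 281 CPM. The immune markers, with NKG7 at no count, summed to 9.13 to 10.2 CPM in SKP2-1, 9.15 to 10.0 CPM in SKP2-2, 6.12 to 6.49 CPM in NC. The 6 endothelial markers, with CLDN5 at no count, summed to 15.7 to 17.4 CPM in SKP2-1, 7.94 to 9.50 CPM in SKP2-2, 7.11 to 8.19 CPM in NC. The 5 adipocyte and 5 hepatocyte markers summed to at most 0.820 and 0.923 CPM in any library. The part of the markers in the results below was not tested.

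Cells make cholesterol from acetyl-CoA by way of mevalonate, isoprenoid diphosphates, squalene and lanosterol. SREBP proteins, which SCAP carries out of the endoplasmic reticulum when membrane sterols are low, switch on most enzymes of this route, and INSIG proteins hold SCAP back when sterols are high. Oxysterols activate the LXR receptors, which in turn switch on export pumps such as ABCA1 and the ligase MYLIP, which removes lipoprotein receptors. Serum lipoproteins are the other source of cholesterol in cultured cells, and NPC1 and NPC2 release it from lysosomes.

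With SKP2-1, the largest falls were those of STARD4, a cytosolic sterol carrier, to 45.5 ± 0.348 CPM against 103 ± 7.46 CPM in NC, and of INSIG1, the SREBP-induced brake on SREBP, to 68.4 ± 2.54 CPM against 140.2 ± 8.14 CPM (SD, n = 3 each). IDI1, the isomerase of isopentenyl diphosphate, fell to 83.2 ± 0.952 CPM against 142 ± 11.5 CPM. The efflux pump gene ABCA1 rose to 146 ± 9.74 CPM against 97.6 ± 7.22 CPM. The threshold of 0.05 was passed by 15 of the 32 genes (46.9%) in edgeR's quasi-likelihood test with Benjamini-Hochberg adjustment over all genes tested, against 45.5% of all genes. The 15 comprised 5 higher and 10 lower genes, where 25% of all genes were higher and 20.5% lower. They were 7 higher and 9 lower with scaling to library size only, and 8 higher and 9 lower without NC replicate 3. Over all genes, these settings gave 4363 higher and 3366 lower of 16575, and 4254 and 3215 of 16916. The reported fit gave 4150 and 3398 of 16575. The share of called genes is near that of the transcriptome, and the median log2 fold change was -0.02, against 0.02 over all genes.

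With SKP2-2, INSIG1 fell further, to 45.1 ± 0.728 CPM against 140.2 ± 8.14 CPM in NC (SD, n = 3 each), and its paralog INSIG2 fell to 21.8 ± 0.837 CPM against 47.2 ± 4.08 CPM. MSMO1, a sterol methyl oxidase, and MYLIP fell to 46.0 ± 2.32 and 22.5 ± 0.169 CPM, against 92.7 ± 6.67 and 43.8 ± 3.04 CPM in NC. ABCA1, LSS and HMGCS1 rose. With this siRNA 17 of the 32 genes (53.1%) passed, against 49.4% of all genes, with 7 higher and 10 lower (25.2% and 24.1% of all genes). The median log2 fold change was 0.03, equal to that over all genes at this precision.

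Both comparisons share the NC libraries. Lower with both siRNAs were 7 genes, ACAT2, IDI1, FDPS, FDFT1, MSMO1, INSIG1 and STARD4 (21.9% of the 32, against 11% of all genes). They were 5 without SKP2-2 replicate 3, and 6 without NC replicate 2 or 3, any one SKP2-1 replicate or SKP2-2 replicate 2. Scaling to library size only, the replicate number as a block and fits of 2 groups also gave 6. The shares of all genes with these settings are not given here. Higher with both were 3, GGPS1, SC5D and ABCA1 (9.38%, against 12.6% of all genes), and without NC replicate 3 they were 5. Together these were 10 of the 32, where 23.6% of all genes passed with both in the same direction. MVK, SCD and MYLIP passed in opposite directions (9.38%, against 6.64% of all genes). Of these, MYLIP alone did so without NC replicate 2, without any one SKP2-1 replicate or without SKP2-2 replicate 2, while without NC replicate 3 the 3 genes were MVK, INSIG2 and MYLIP. EBP and ABCG1 passed with SKP2-1 and not with SKP2-2, and HMGCS1, LSS, DHCR7 and INSIG2 the other way round. The remaining genes passed with neither. In the 2 comparisons with NC, 3 genes each passed with a change of at least 2-fold, INSIG1, STARD4 and the barely expressed ABCG1 with SKP2-1 and INSIG1, INSIG2 and MSMO1 with SKP2-2, where 5.91% and 6.86% of all genes did so.

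Compared directly, SKP2-2 cells had less INSIG2, MYLIP, INSIG1, MSMO1 and DHCR7 than SKP2-1 cells and more STARD4, IDI1, LSS and SCD. Of the 32 genes, 17 (53.1%) passed between the siRNAs, 9 higher and 8 lower with SKP2-2, against 50.5% of all genes (25.2% higher and 25.3% lower). MYLIP and INSIG2 passed with a difference of at least 2-fold, as 6.96% of all genes did. In bulk RNA, fewer cells of a type and less RNA per cell cannot be told apart.

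**Figure D1:**
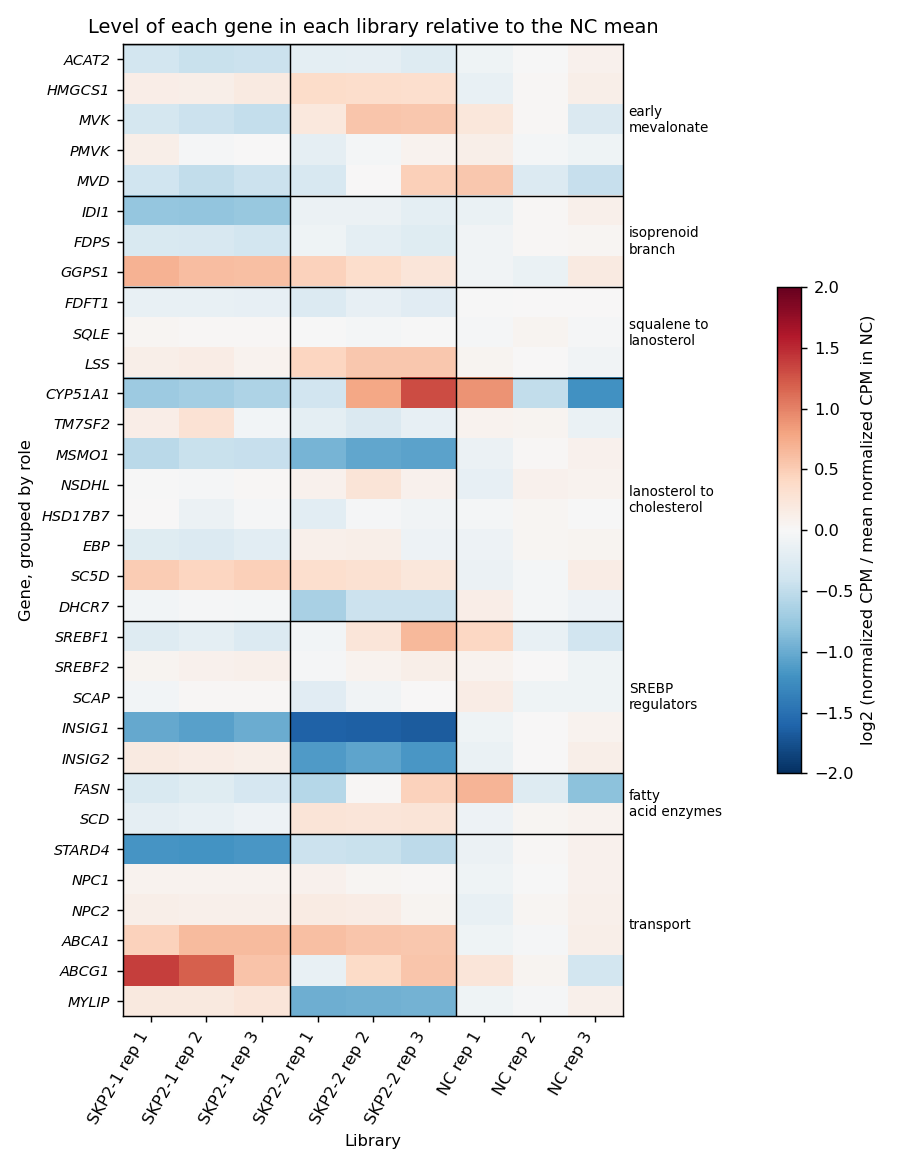
Log2 ratio of each library's normalized CPM to the NC mean for the 32 genes, rows grouped by role and columns by group (3 libraries each of SKP2-1, SKP2-2 and NC). INSIG1 is blue in all 6 SKP2 siRNA libraries, INSIG2 and MYLIP in the 3 SKP2-2 libraries, and CYP51A1, FASN, MVD and SREBF1 differ among libraries of the same group.

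**Figure D2:**
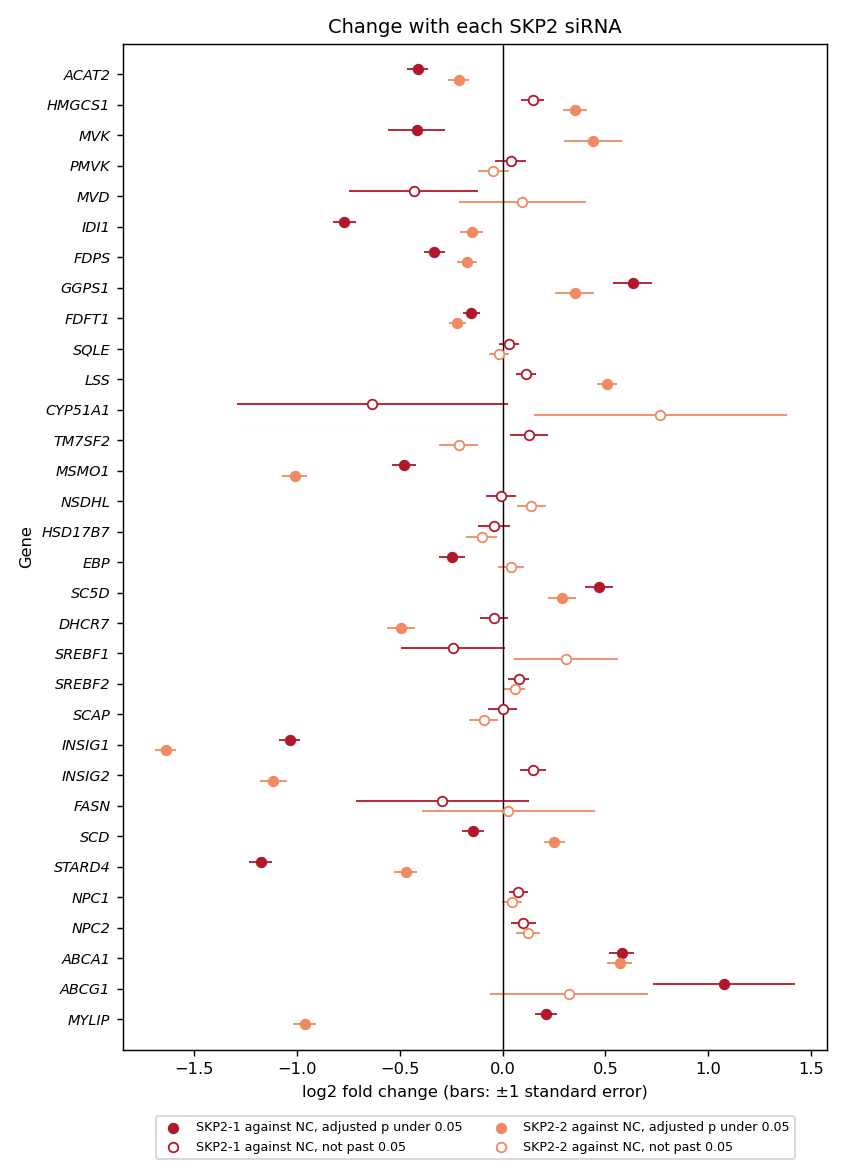
Log2 fold change against NC for each gene with SKP2-1 and SKP2-2. Bars show 1 SE, filled points passed the adjusted threshold of 0.05 and open points did not; 15 points are filled for SKP2-1 and 17 for SKP2-2.

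Per kb of exon, levels in NC spanned from 230.0 CPM per kb for the desaturase gene SCD to 0.0311 CPM per kb for ABCG1. FDPS (53.0), NPC2 (52.3), FASN (50.1) and INSIG1 (38.4 CPM per kb) followed SCD in this order of levels. CYP51A1 (1.18) and GGPS1 (1.72 CPM per kb) stood next above ABCG1.

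INSIG1 (ENSG00000186480, chromosome 7, 155297776 to 155310235 on GRCh38 in GENCODE 29), had 68.7, 65.8 and 70.9 CPM with SKP2-1, 45.8, 45.1 and 44.3 CPM with SKP2-2, and 132, 141 and 148 CPM in NC in replicates 1 to 3. All 6 SKP2 siRNA libraries lay below the lowest NC library, and the SKP2-2 libraries below those of SKP2-1. INSIG1 was 2.05 times lower with SKP2-1 (log2 fold change -1.03, SE 0.05, adjusted p = 3.93e-09) and lower by 3.11 times with SKP2-2 (log2 fold change -1.64, SE 0.05, adjusted p = 9.60e-11). A direct comparison of the siRNAs found it lower with SKP2-2 (log2 difference -0.60, adjusted p = 5.13e-07).

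INSIG2 (ENSG00000125629, chromosome 2, 118088452 to 118110997), the paralog that is not under the same SREBP control, had 53.4, 52.0 and 51.4 CPM with SKP2-1, 21.6, 22.7 and 21.1 CPM with SKP2-2, and 43.0, 47.4 and 51.1 CPM in NC. Its SKP2-2 libraries lay below all others, whereas the SKP2-1 libraries lay just above the NC range. It was 2.16 times lower with SKP2-2 (log2 fold change -1.11, SE 0.06, adjusted p = 1.34e-08). The log2 fold change with SKP2-1 was 0.15 (SE 0.06, adjusted p = 0.0723), which passed without NC replicate 3 (0.21, adjusted p = 0.0106) and with library size only (0.16, adjusted p = 0.0415). The difference between the siRNAs was -1.26 (adjusted p = 4.02e-09).

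The SREBP genes themselves and SCAP passed in none of the 3 comparisons. SREBF2, which encodes the main driver of sterol synthesis, had 197, 201 and 204 CPM with SKP2-1, 188, 199 and 207 CPM with SKP2-2, and 200.1, 190.0 and 179 CPM in NC, and the groups overlapped. Its log2 fold change was 0.08 (SE 0.05, adjusted p = 0.230) with SKP2-1 and 0.06 (SE 0.05, adjusted p = 0.358) with SKP2-2. SCAP, the SREBP escort, was at 75.6 ± 2.28 CPM with SKP2-1, 70.9 ± 5.98 CPM with SKP2-2 and 75.6 ± 7.12 CPM in NC (adjusted p = 0.999 and 0.316). SREBF1, whose products favour fatty acid genes, had 107, 113 and 106 CPM with SKP2-1, 123, 151 and 202 CPM with SKP2-2, and 171, 116 and 98.4 CPM in NC. NC replicate 1 and SKP2-2 replicate 3 were the high libraries of their groups, and the SE was wide for this gene (log2 fold change -0.24, SE 0.25, with SKP2-1 and 0.31, SE 0.25, with SKP2-2, adjusted p = 0.494 and 0.362). Without both of those libraries, calls appeared for SREBF2 with SKP2-1 (0.10, adjusted p = 0.0383), and between the siRNAs for SREBF1 (0.35, adjusted p = 0.0492) and SCAP (-0.13, adjusted p = 0.0223). SREBF1 shares 556 exon bases with RAI1 on the opposite strand.

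Promoters are shown for genes that stood out in these comparisons, INSIG1, STARD4 and MSMO1 (lower with both siRNAs), ABCA1 (higher with both), and INSIG2 and MYLIP (lower with SKP2-2). Each runs from 250 bases before to 50 bases after the RefSeq start (GRCh38.p14), 5′ to 3′ on the gene's strand, with every CCAAT box, the NF-Y motif, on either strand in capitals. They lie at chr7:155297628-155297927, plus strand (INSIG1); chr5:111512486-111512785, minus strand (STARD4); chr4:165327419-165327718, plus strand (MSMO1); chr9:104928106-104928405, minus strand (ABCA1); chr2:118088221-118088520, plus strand (INSIG2) and chr6:16128836-16129135, plus strand (MYLIP).
INSIG1: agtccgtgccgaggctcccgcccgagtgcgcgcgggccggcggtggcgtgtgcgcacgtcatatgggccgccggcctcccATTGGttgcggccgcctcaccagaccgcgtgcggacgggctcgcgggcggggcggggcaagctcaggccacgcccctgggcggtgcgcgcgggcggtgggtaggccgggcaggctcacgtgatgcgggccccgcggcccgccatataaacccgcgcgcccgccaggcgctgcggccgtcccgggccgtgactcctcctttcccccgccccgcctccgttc
STARD4: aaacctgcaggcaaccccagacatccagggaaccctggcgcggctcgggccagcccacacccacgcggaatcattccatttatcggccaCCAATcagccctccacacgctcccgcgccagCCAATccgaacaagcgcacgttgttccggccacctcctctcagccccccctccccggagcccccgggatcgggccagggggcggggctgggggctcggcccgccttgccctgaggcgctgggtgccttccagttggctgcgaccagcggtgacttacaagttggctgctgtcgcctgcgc
MSMO1: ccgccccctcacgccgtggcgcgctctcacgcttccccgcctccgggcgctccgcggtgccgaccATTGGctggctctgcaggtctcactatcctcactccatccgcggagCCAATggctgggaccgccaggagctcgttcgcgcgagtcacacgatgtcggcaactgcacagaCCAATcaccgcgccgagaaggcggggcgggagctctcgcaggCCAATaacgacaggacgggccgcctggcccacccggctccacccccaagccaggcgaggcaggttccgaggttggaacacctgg
ABCA1: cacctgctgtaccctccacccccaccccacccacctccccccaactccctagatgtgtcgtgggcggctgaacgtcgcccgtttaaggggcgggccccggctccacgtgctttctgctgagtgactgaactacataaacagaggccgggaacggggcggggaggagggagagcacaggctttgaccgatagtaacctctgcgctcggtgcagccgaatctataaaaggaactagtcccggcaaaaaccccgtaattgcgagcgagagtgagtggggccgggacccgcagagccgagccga
INSIG2: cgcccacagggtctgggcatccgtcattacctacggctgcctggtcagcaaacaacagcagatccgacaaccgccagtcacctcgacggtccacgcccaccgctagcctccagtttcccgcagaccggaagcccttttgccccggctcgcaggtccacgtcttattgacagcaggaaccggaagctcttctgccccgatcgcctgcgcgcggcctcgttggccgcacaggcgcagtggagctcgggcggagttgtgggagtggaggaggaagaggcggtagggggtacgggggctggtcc
MYLIP: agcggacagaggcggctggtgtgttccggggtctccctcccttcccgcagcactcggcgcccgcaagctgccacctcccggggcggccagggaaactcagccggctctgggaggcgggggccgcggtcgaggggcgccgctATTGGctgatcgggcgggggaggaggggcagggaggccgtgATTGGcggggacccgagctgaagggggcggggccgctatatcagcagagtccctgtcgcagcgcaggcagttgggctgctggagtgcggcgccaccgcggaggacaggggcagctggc

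Of the 32 genes, 27 had a promoter in the RefSeq table. CCAAT was found on either strand in 18 of them (66.7%), against 34.6% of the 35116 promoters of all gene types. MSMO1 had 4 such boxes, STARD4 and MYLIP 2 each and INSIG1 1, and the ABCA1 and INSIG2 windows had none. The GC box GGGCGG, also on either strand, was in 25 of the 27 (92.6%), against 45% of all promoters. The sterol regulatory element, searched as TCACNCCAC on both strands, was found in 1 (3.7%), that of SREBF2, against 1.13% of all. None of the 3 motifs contains another. These are matches of letters in a short window, and binding was not measured.

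In the first steps of the mevalonate route, the thiolase gene ACAT2 was lower with both siRNAs. It had 71.7, 68.0 and 68.1 CPM with SKP2-1, 80.7, 81.2 and 76.9 CPM with SKP2-2, and 86.9, 91.6 and 98.0 CPM in NC, with no overlap between groups. The fall was 1.33-fold with SKP2-1 (log2 fold change -0.41, SE 0.05, adjusted p = 2.17e-05) and smaller with SKP2-2 (log2 fold change -0.21, SE 0.05, adjusted p = 0.00372), and the siRNAs differed by 0.20 (adjusted p = 0.00554). On the opposite strand ACAT2 shares 1458 exon bases (33.9%) with SOD2-OT1, 1141 (26.5%) with SOD2 and 397 (9.2%) with TCP1. How strand was treated in counting is not given in the sources used here.

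HMGCS1, the HMG-CoA synthase gene, had 88.4, 86.6 and 91.3 CPM with SKP2-1, 103, 103 and 102 CPM with SKP2-2, and 72.6, 81.3 and 86.6 CPM in NC, so that NC libraries were lowest and those of SKP2-2 highest. It rose 1.28-fold with SKP2-2 (log2 fold change 0.35, SE 0.06, adjusted p = 0.000192). Its log2 fold change with SKP2-1 was 0.15 (SE 0.06, adjusted p = 0.0534), and this passed without NC replicate 3 (0.20, adjusted p = 0.00561), with library size only (0.16, adjusted p = 0.0245) and with no filter on low counts (0.15, adjusted p = 0.0183). The siRNAs differed by 0.21 (adjusted p = 0.00880).

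MVK, the mevalonate kinase gene, moved in opposite directions. Its levels were 24.5, 23.1 and 22.6 CPM with SKP2-1, 36.0, 45.9 and 45.2 CPM with SKP2-2, and 36.7, 31.7 and 25.5 CPM in NC. The SKP2-1 libraries lay below all others, while the SKP2-2 and NC ranges overlapped. MVK was 1.34 times lower with SKP2-1 (log2 fold change -0.42, SE 0.14, adjusted p = 0.0404) and 1.36-fold higher with SKP2-2 (log2 fold change 0.44, SE 0.14, adjusted p = 0.0292), with a difference of 0.86 between the siRNAs (adjusted p = 0.00106). The SKP2-1 call was lost without NC replicate 1, NC replicate 2, any one SKP2-1 replicate or SKP2-2 replicate 3, and in 3 other alternatives (log2 fold changes -0.45 to -0.30, adjusted p = 0.0532 to 0.122). The SKP2-2 call was lost without NC replicate 2, SKP2-2 replicate 2 or SKP2-2 replicate 3, and in 2 other alternatives (log2 fold changes 0.38 to 0.45, adjusted p = 0.0530 to 0.0928). MVK shares 306 exon bases with MMAB on the opposite strand.

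The other kinase of the route, PMVK, was at 30.4 ± 1.46 CPM with SKP2-1, 28.6 ± 2.41 CPM with SKP2-2 and 29.5 ± 2.36 CPM in NC (adjusted p = 0.699 and 0.646). MVD, the mevalonate diphosphate decarboxylase gene, had 21.7, 20.4 and 21.1 CPM with SKP2-1, 22.8, 28.7 and 39.7 CPM with SKP2-2, and 41.3, 23.5 and 20.8 CPM in NC. Its spread within SKP2-2 and within NC was as large as its differences (adjusted p = 0.314 with SKP2-1 and 0.827 with SKP2-2). Between the siRNAs MVD passed without NC replicate 1 and SKP2-2 replicate 3 together (0.30, adjusted p = 0.0130) and not otherwise (0.53, adjusted p = 0.207).

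Among the isoprenoid enzymes, IDI1 and FDPS were lower and GGPS1 higher with both siRNAs. IDI1 had 83.4, 82.2 and 84.1 CPM with SKP2-1, 130.4, 130.2 and 123 CPM with SKP2-2, and 129, 144 and 152 CPM in NC. The SKP2-1 libraries stood well below the rest, and the SKP2-2 range touched that of NC. The fall was 1.70-fold with SKP2-1 (log2 fold change -0.77, SE 0.06, adjusted p = 1.45e-07) but only 1.11-fold with SKP2-2 (log2 fold change -0.15, SE 0.06, adjusted p = 0.0390), a difference of 0.62 (adjusted p = 8.89e-07). The SKP2-2 call was lost without NC replicate 2 or 3, any one SKP2-1 replicate, or SKP2-2 replicate 2 or 3, and in 3 other alternatives (log2 fold changes -0.17 to -0.10, adjusted p = 0.0570 to 0.132).

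FDPS, the farnesyl diphosphate synthase gene, had 159, 158 and 154 CPM with SKP2-1, 186, 171 and 167 CPM with SKP2-2, and 188, 201 and 203 CPM in NC, with each siRNA group below NC. It was 1.26 times lower with SKP2-1 (log2 fold change -0.33, SE 0.05, adjusted p = 0.000106), and with SKP2-2 1.13 times lower (log2 fold change -0.17, SE 0.05, adjusted p = 0.0102). The SKP2-2 call was lost without SKP2-2 replicate 3 (-0.14, adjusted p = 0.0507). Between the siRNAs the difference of 0.16 (adjusted p = 0.0176) was lost without SKP2-1 replicate 2 or 3 (log2 fold changes 0.14 to 0.16, adjusted p = 0.0535 to 0.0773).

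GGPS1 makes the geranylgeranyl diphosphate used to modify Rab proteins, and its levels were 10.7, 10.0 and 9.93 CPM with SKP2-1, 9.05, 8.34 and 7.78 CPM with SKP2-2, and 6.24, 6.01 and 7.45 CPM in NC. All 6 siRNA libraries were above the NC range. It rose 1.55-fold with SKP2-1 (log2 fold change 0.63, SE 0.09, adjusted p = 0.000105) and 1.28-fold with SKP2-2 (log2 fold change 0.35, SE 0.10, adjusted p = 0.00784), the second of which was lost without SKP2-2 replicate 1 (0.25, adjusted p = 0.0544). The difference between the siRNAs, -0.28 (adjusted p = 0.0223), was lost without SKP2-1 replicate 1, SKP2-2 replicate 2 or SKP2-2 replicate 3, and without NC replicate 1 and SKP2-2 replicate 3 together (log2 fold changes -0.28 to -0.22, adjusted p = 0.0575 to 0.0902). On the same strand, 1422 of its exon bases (37.3%) belong also to another annotated gene, and 138 on the opposite strand to ARID4B, so its level is uncertain.

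Of the 3 enzymes from farnesyl diphosphate to lanosterol, FDFT1 fell with both siRNAs, SQLE passed with neither and LSS rose with SKP2-2. FDFT1, the squalene synthase gene, had 103, 103 and 102 CPM with SKP2-1, 94.5, 103 and 97.2 CPM with SKP2-2, and 114, 115 and 115 CPM in NC, with both siRNA groups below NC. The changes were small, -0.15 (SE 0.04, adjusted p = 0.00927) with SKP2-1 and -0.22 (SE 0.04, adjusted p = 0.000673) with SKP2-2 on the log2 scale. SQLE, the squalene epoxidase gene and a rate-limiting step of the route, had 34.5, 33.8 and 34.1 CPM with SKP2-1, 33.0, 32.6 and 33.3 CPM with SKP2-2, and 32.7, 34.7 and 32.8 CPM in NC. Its groups overlapped with NC, with log2 fold changes of 0.03 (SE 0.05) and -0.02 (SE 0.05) for SKP2-1 and SKP2-2.

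LSS, the lanosterol synthase gene, had 158, 163 and 154 CPM with SKP2-1, 197, 213 and 213 CPM with SKP2-2, and 152, 147 and 139.5 CPM in NC. The SKP2-2 libraries lay above all others. LSS rose 1.42-fold with SKP2-2 (log2 fold change 0.51, SE 0.05, adjusted p = 1.68e-06), while its log2 fold change with SKP2-1 was 0.12 (SE 0.05, adjusted p = 0.0707). The SKP2-1 value passed without NC replicate 1 (0.13, adjusted p = 0.0275) and without NC replicate 1 and SKP2-2 replicate 3 together (0.13, adjusted p = 0.0168). The siRNAs differed by 0.39 (adjusted p = 1.77e-05).

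Of the 8 genes that turn lanosterol into cholesterol, 1 rose and 2 fell with SKP2-1, and likewise 1 rose and 2 fell with SKP2-2 (37.5% called with each, against 45.5% and 49.4% of all genes). MSMO1, which begins the removal of the methyl groups at the fourth carbon, had 64.1, 68.1 and 67.4 CPM with SKP2-1, 48.6, 45.3 and 44.2 CPM with SKP2-2, and 85.6, 93.8 and 98.8 CPM in NC. The 3 groups did not overlap, SKP2-2 being lowest. It was 1.39 times lower with SKP2-1 (log2 fold change -0.48, SE 0.06, adjusted p = 1.84e-05), and with SKP2-2 2.02 times lower (log2 fold change -1.01, SE 0.06, adjusted p = 1.63e-08), and the siRNAs differed by -0.53 (adjusted p = 6.66e-06).

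SC5D, the desaturase that acts late in the route, went the other way, with 40.7, 38.2 and 39.4 CPM with SKP2-1, 35.8, 35.3 and 33.2 CPM with SKP2-2, and 26.2, 27.8 and 31.4 CPM in NC. All siRNA libraries lay above the NC range. It rose 1.38-fold with SKP2-1 (log2 fold change 0.47, SE 0.07, adjusted p = 7.47e-05) and 1.22-fold with SKP2-2 (log2 fold change 0.29, SE 0.07, adjusted p = 0.00301). The difference between the siRNAs (-0.18, adjusted p = 0.0380) was lost without NC replicate 2, any one SKP2-1 replicate, or SKP2-2 replicate 2 or 3, and in 2 other alternatives (log2 fold changes -0.21 to -0.15, adjusted p = 0.0521 to 0.131).

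DHCR7, which makes cholesterol from its direct precursor, had 111, 113 and 112 CPM with SKP2-1, 73.8, 85.9 and 85.4 CPM with SKP2-2, and 126, 112 and 108 CPM in NC. It was 1.41 times lower with SKP2-2 (log2 fold change -0.50, SE 0.07, adjusted p = 4.06e-05), and with SKP2-1 its log2 fold change was -0.04 (SE 0.07, adjusted p = 0.655). The siRNAs differed by -0.45 (adjusted p = 8.54e-05). EBP, the sterol isomerase gene, had 48.3, 47.4 and 49.2 CPM with SKP2-1, 61.3, 61.8 and 53.6 CPM with SKP2-2, and 53.1, 59.1 and 59.6 CPM in NC. Here the SKP2-1 libraries were the low ones (log2 fold change -0.25, SE 0.06, adjusted p = 0.00628), the SKP2-2 libraries overlapped with NC (0.04, adjusted p = 0.642), and the siRNAs differed by 0.29 (adjusted p = 0.00214).

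TM7SF2, a sterol reductase gene, passed only between the siRNAs among the 3 comparisons. It had 11.8, 13.1 and 10.3 CPM with SKP2-1, 9.37, 8.82 and 9.58 CPM with SKP2-2, and 11.2, 11.2 and 9.80 CPM in NC, with a difference of -0.34 (SE 0.09, adjusted p = 0.00861) that was lost without SKP2-1 replicate 2 (-0.26, adjusted p = 0.0507). Against NC its log2 fold change was 0.13 with SKP2-1 (adjusted p = 0.292) and -0.21 with SKP2-2 (adjusted p = 0.0807), and the second passed without NC replicate 3 (-0.28, adjusted p = 0.0358).

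NSDHL, a dehydrogenase of the methyl removal, and HSD17B7, the ketone reductase of the same complex, passed in no comparison. NSDHL was at 31.0 ± 0.594 CPM with SKP2-1, 34.3 ± 2.34 CPM with SKP2-2 and 31.1 ± 2.96 CPM in NC, and its difference between the siRNAs was 0.15 (adjusted p = 0.105). That difference passed without NC replicate 1 (0.15, adjusted p = 0.0251), without it and SKP2-2 replicate 3 (0.19, adjusted p = 0.00552), in a fit of the SKP2-2 and SKP2-1 libraries alone (0.15, adjusted p = 0.0369) and with library size only (0.18, adjusted p = 0.0432). That scaling also gave a call with SKP2-2 (0.18, adjusted p = 0.0413). HSD17B7 was at 9.84 ± 0.420 CPM with SKP2-1, 9.44 ± 0.659 CPM with SKP2-2 and 10.1 ± 0.323 CPM in NC, and reads of its pseudogene HSD17B7P2 came to 11.9% of its own.

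CYP51A1, the lanosterol demethylase gene, had 2.57, 2.64 and 2.78 CPM with SKP2-1, 3.26, 7.26 and 10.5 CPM with SKP2-2, and 7.87, 3.01 and 1.84 CPM in NC. These levels rest on 103 to 137 counts a library in SKP2-1, 132 to 491 in SKP2-2 and 87 to 280 in NC, and its libraries differed up to 4.27-fold within NC and 3.23-fold within SKP2-2. No comparison passed (adjusted p = 0.486, 0.352 and 0.115 for SKP2-1 against NC, SKP2-2 against NC and SKP2-2 against SKP2-1), except between the siRNAs without NC replicate 1 (1.40, adjusted p = 0.0482). Counts on its pseudogenes CYP51A1P1, CYP51A1P2 and CYP51A1P3 came to 2.79%, 3.29% and 0.669% of its own.

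The fatty acid enzymes SCD and FASN are targets shared with the sterol branch of SREBP. SCD, which makes monounsaturated acyl chains, had 1082, 1109 and 1149.7 CPM with SKP2-1, 1469, 1455 and 1474 CPM with SKP2-2, and 1144, 1261 and 1287 CPM in NC. The SKP2-2 libraries lay above the NC range, and the SKP2-1 range reached into it. SCD rose 1.19-fold with SKP2-2 (log2 fold change 0.25, SE 0.05, adjusted p = 0.00125) and was 1.11 times lower with SKP2-1 (log2 fold change -0.14, SE 0.05, adjusted p = 0.0373), and the siRNAs differed by 0.40 (adjusted p = 2.98e-05). The SKP2-1 call was lost without NC replicate 2 or 3, any one SKP2-1 replicate, or SKP2-2 replicate 2, and in 1 other alternative (log2 fold changes -0.17 to -0.11, adjusted p = 0.0521 to 0.150).

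FASN, the fatty acid synthase gene, had 380.1, 395 and 374 CPM with SKP2-1, 316, 476 and 643 CPM with SKP2-2, and 749, 392 and 266 CPM in NC. Its libraries spread 2.81-fold within NC and 2.03-fold within SKP2-2, and the 3 SKP2-1 libraries lay close together. Neither comparison with NC passed (log2 fold change -0.29, SE 0.42, with SKP2-1 and 0.03, SE 0.42, with SKP2-2, adjusted p = 0.621 and 0.965). With such an SE a change of FASN of the size seen for SCD was not detectable here.

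**Figure D3:**
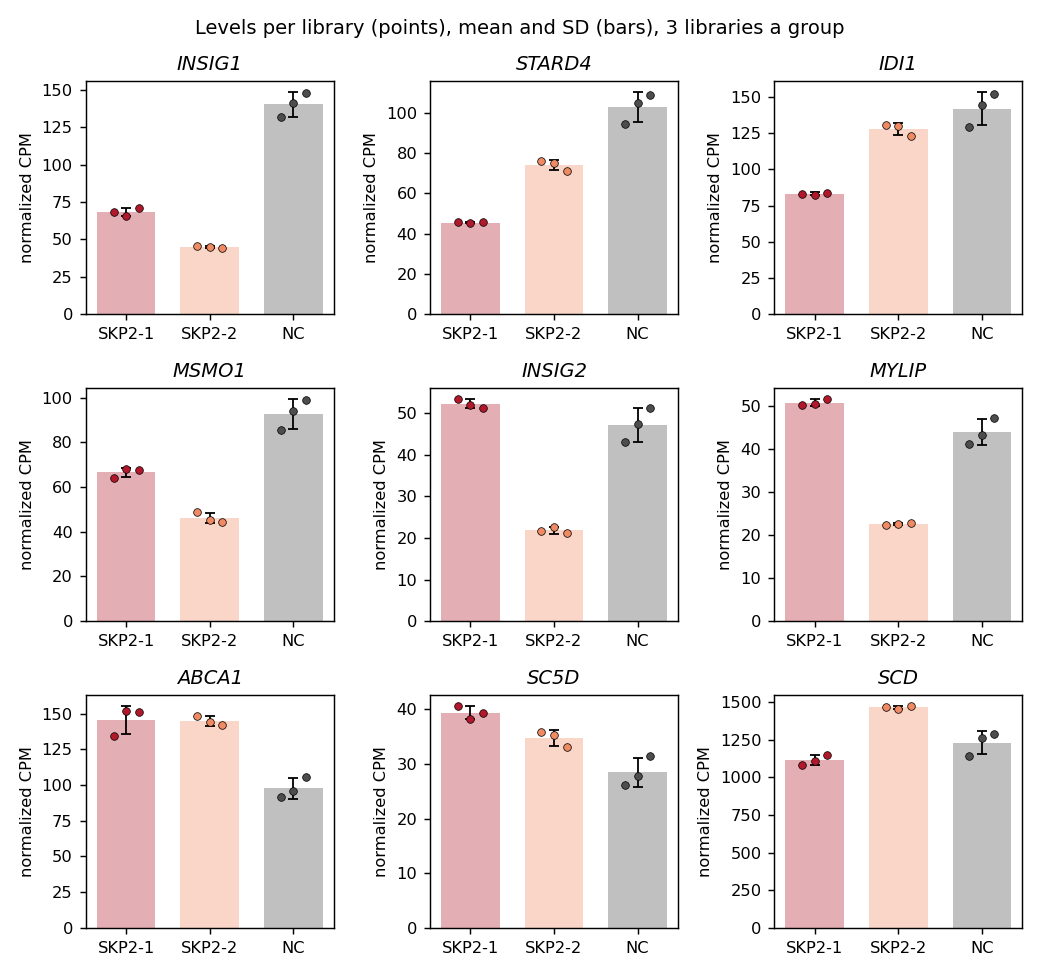
Normalized CPM of 9 genes in each library (points), with the mean (bars) and SD (error bars) of 3 libraries for SKP2-1, SKP2-2 and NC. INSIG1 and MSMO1 are lowest with SKP2-2, STARD4 and IDI1 lowest with SKP2-1, and ABCA1 and SC5D are above NC with both.

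Among the transport genes, STARD4 fell and ABCA1 rose with both siRNAs. STARD4 (ENSG00000164211, chromosome 5, 111496033 to 111512590) had 45.6, 45.1 and 45.7 CPM with SKP2-1, 76.1, 75.2 and 71.3 CPM with SKP2-2, and 94.6, 105 and 109 CPM in NC. The groups did not overlap, SKP2-1 being lowest. It was 2.26 times lower with SKP2-1 (log2 fold change -1.18, SE 0.06, adjusted p = 2.54e-09), and with SKP2-2 1.39 times lower (log2 fold change -0.47, SE 0.05, adjusted p = 8.95e-06). The order of the siRNAs was the reverse of that for INSIG1, with a difference of 0.71 (adjusted p = 2.20e-07).

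ABCA1 (ENSG00000165029, chromosome 9, 104781002 to 104928237), which loads cholesterol onto apolipoprotein A-I, had 135, 152 and 151 CPM with SKP2-1, 148, 144 and 142 CPM with SKP2-2, and 91.6, 95.5 and 106 CPM in NC. Every siRNA library was above every NC library, and the siRNA groups overlapped. The rise was 1.49-fold with SKP2-1 (log2 fold change 0.58, SE 0.06, adjusted p = 4.35e-06) and 1.48-fold with SKP2-2 (log2 fold change 0.57, SE 0.06, adjusted p = 4.35e-06), and the difference between the siRNAs was -0.01 (SE 0.06). ABCG1, the pump that hands cholesterol to HDL, was barely detected, at 0.495, 0.436 and 0.284 CPM with SKP2-1, 0.173, 0.249 and 0.279 CPM with SKP2-2, and 0.225, 0.199 and 0.148 CPM in NC, or 14 to 21, 7 to 13 and 7 to 9 counts a library in SKP2-1, SKP2-2 and NC. It rose with SKP2-1 (log2 fold change 1.08, SE 0.35, adjusted p = 0.0213) and did not pass with SKP2-2 (0.32, adjusted p = 0.516). The first call was lost without NC replicate 2 or 3, without SKP2-1 replicate 1 or 2, and with DESeq2 (log2 fold changes 0.90 to 1.12, adjusted p = 0.0503 to 0.116). Between the siRNAs ABCG1 passed without SKP2-1 replicate 3 (-0.98, adjusted p = 0.0354) and not otherwise (-0.76, adjusted p = 0.0726).

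MYLIP (ENSG00000007944, chromosome 6, 16129125 to 16148248), also known as IDOL and, like ABCA1, a target of LXR, had 50.2, 50.4 and 51.6 CPM with SKP2-1, 22.4, 22.5 and 22.7 CPM with SKP2-2, and 41.2, 43.2 and 47.1 CPM in NC. The SKP2-2 libraries were all below and the SKP2-1 libraries all above the NC range. It was 1.95 times lower with SKP2-2 (log2 fold change -0.96, SE 0.06, adjusted p = 1.50e-08) and slightly higher with SKP2-1 (log2 fold change 0.21, SE 0.05, adjusted p = 0.00645), with a difference of -1.17 between the siRNAs (adjusted p = 2.24e-09).

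The lysosomal exporters passed in no comparison. NPC1, the membrane transporter, was at 192 ± 0.0852 CPM with SKP2-1, 188 ± 3.88 CPM with SKP2-2 and 182 ± 11.2 CPM in NC (adjusted p = 0.213 and 0.467). NPC2, its soluble partner, was at 154 ± 1.09 CPM with SKP2-1, 157 ± 6.25 CPM with SKP2-2 and 144 ± 12.7 CPM in NC (adjusted p = 0.183 and 0.105). Without NC replicate 3 calls appeared for NPC1 with SKP2-1 (0.12, adjusted p = 0.0253) and for NPC2 with SKP2-1 (0.15, adjusted p = 0.0406) and SKP2-2 (0.17, adjusted p = 0.0226). The last passed also with library size only (0.17, adjusted p = 0.0244) and with no filter on low counts (0.13, adjusted p = 0.0380). NPC1 shares 604 exon bases with RMC1 and NPC2 shares 103 with ISCA2, each on the opposite strand.

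Libraries of 1 group differed from each other for a subset of the 32 genes. NC replicate 1 was at least 1.5 times NC replicate 3 for CYP51A1, FASN, MVD, SREBF1 and ABCG1, and SKP2-2 replicate 3 was at least 1.5 times SKP2-2 replicate 1 for these 5 genes. Across the 32 genes, which share libraries and are not independent, Pearson's r between GC content and the log2 ratio was 0.428 in NC and 0.353 in SKP2-2. Without CYP51A1, left out after its value was seen, r was 0.754 and 0.681. For SKP2-1 replicate 3 over replicate 1, r was -0.199 over the 32 genes. MVD, FASN and SREBF1 had transcripts of 65.2%, 65.3% and 63.7% GC, whereas STARD4, IDI1, MSMO1 and INSIG2 had 39.3%, 41.1%, 38.1% and 37.2%. The part of GC content in the changes was not tested. Without both NC replicate 1 and SKP2-2 replicate 3, INSIG1 was at -1.09, adjusted p = 2.09e-12, with SKP2-1 and -1.67, adjusted p = 1.23e-13, with SKP2-2.

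**Figure D4:**
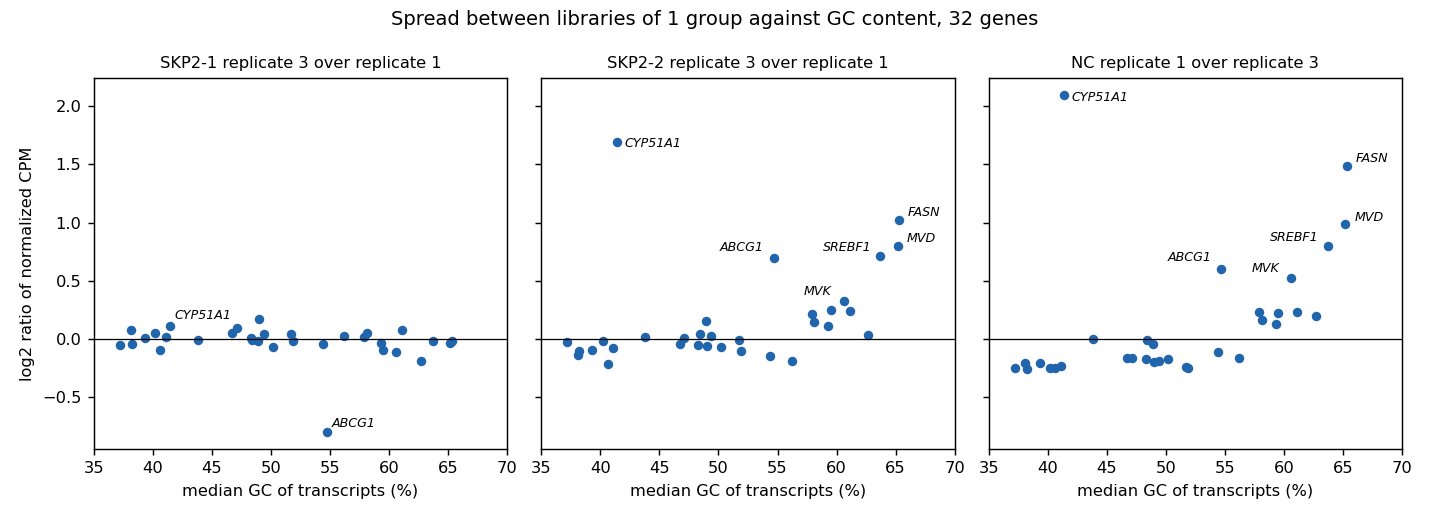
Log2 ratio of normalized CPM between libraries of the same group (SKP2-1, SKP2-2 and NC, left to right) against the median GC content of each gene's protein-coding transcripts, for the 32 genes. In SKP2-2 and NC the GC-rich FASN, MVD and SREBF1 and the GC-poorer CYP51A1 lie above the rest, and in SKP2-1 the points other than ABCG1 lie near 0.

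Other genes of sterol and fatty acid metabolism were drawn from 6 lists of 88 genes, of which 84 were tested. The lists were made with earlier results of these data known, so their called shares only describe them. Of the 84, 28 were higher and 21 lower with SKP2-1, and 26 higher and 22 lower with SKP2-2 (58.3% and 57.1% called, against 45.5% and 49.4% of all genes). Their median log2 fold changes were 0.05 and 0.10. Of 14 genes for SREBP processing and sterol-regulated degradation, 4 rose and 7 fell with SKP2-1 and 2 rose and 8 fell with SKP2-2 (78.6% and 71.4% called). SPRING1, a cofactor of the protease that cuts SREBP, rose with both (0.45 and 0.57 on the log2 scale for SKP2-1 and SKP2-2). ERLIN2 (-0.33 and -0.58) and UFD1 (-0.35 and -0.20), which take part in the degradation of sterol-regulated proteins, fell with both, as did PAQR3, a Golgi anchor of SCAP (-0.34 and -0.21). The largest difference between the siRNAs on this list was in MBTPS2, the intramembrane protease of SREBP, at -1.50 (adjusted p = 2.42e-09), with 13.2 ± 0.823 CPM with SKP2-2 and 37.4 ± 1.01 CPM with SKP2-1. It was at 29.5 ± 2.52 CPM in NC, with log2 fold changes of 0.34 (adjusted p = 0.00123) with SKP2-1 and -1.15 (adjusted p = 2.88e-08) with SKP2-2. MBTPS2 was named here after its value was seen.

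Of 16 genes of fatty acid synthesis and desaturation, 6 rose and 3 fell with SKP2-1 and 8 rose and 1 fell with SKP2-2 (56.2% called with each, against 45.5% and 49.4% of all genes). FADS1, a desaturase of polyunsaturated chains, fell with both (-0.49 and -0.47 for SKP2-1 and SKP2-2), and ACSL3 (0.36 and 0.39), an acyl-CoA synthetase, LPIN1 (0.22 and 0.43), a phosphatidate phosphatase, and ELOVL1 (0.16 and 0.50), an elongase, rose. Of 13 genes that use isoprenoids for other products, 3 rose and 4 fell with SKP2-1 and 4 rose and 3 fell with SKP2-2 (53.8% called with each, against the same 45.5% and 49.4%). ICMT, which methylates prenylated proteins, was the 1 of the 13 that passed with both in the same direction (-0.43 and -0.36), where 23.6% of all genes did so.

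Sterol storage and transfer moved both ways. Of 15 tested genes, 5 rose and 5 fell with SKP2-1, and 4 rose and 7 fell with SKP2-2 (66.7% and 73.3% called, against 45.5% and 49.4% of all genes). TMEM97, an endoplasmic reticulum protein that binds NPC1, had 28.7, 28.7 and 28.5 CPM with SKP2-1, 36.1, 37.6 and 35.7 CPM with SKP2-2, and 50.0, 53.4 and 54.0 CPM in NC, below NC in all 6 siRNA libraries (with SKP2-1, log2 fold change -0.88, SE 0.05, adjusted p = 1.47e-08, and -0.53, adjusted p = 1.43e-06, with SKP2-2). SOAT1, which esterifies cholesterol for storage, fell with both (-0.58 and -0.30), while LIPA, the lysosomal acid lipase that frees cholesterol from its esters, rose (0.72 and 0.38), as did OSBPL2, an oxysterol-binding protein (0.40 and 0.34). NCEH1, another cholesteryl ester hydrolase, named here after its value was seen, had 358, 369.9 and 362 CPM with SKP2-1, 136, 139 and 136 CPM with SKP2-2, and 349.6, 359 and 362 CPM in NC. It was 2.61 times lower with SKP2-2 (log2 fold change -1.38, SE 0.04, adjusted p = 4.56e-11) and at 0.03 (adjusted p = 0.639) with SKP2-1.

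Of 16 genes for lipoprotein receptors, LXR and efflux, 5 rose and 1 fell with SKP2-1 and 3 rose and 1 fell with SKP2-2 (37.5% and 25.0% called, against 45.5% and 49.4% of all genes). VLDLR, a receptor of the lipoprotein receptor family, had 60.2, 58.0 and 62.3 CPM with SKP2-1, 68.1, 65.5 and 64.9 CPM with SKP2-2, and 35.9, 36.3 and 39.9 CPM in NC, above NC in all 6 siRNA libraries (1.61-fold, adjusted p = 2.70e-07, with SKP2-1 and 1.77-fold, adjusted p = 4.16e-08, with SKP2-2). RXRB, a partner of LXR, rose with both (0.18 and 0.28), and LPCAT3, an LXR target of phospholipid remodelling, fell (-0.28 and -0.26).

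Of 10 other sterol enzymes that were tested, 5 rose and 1 fell with SKP2-1, and 5 rose and 2 fell with SKP2-2 (60% and 70% called, against 45.5% and 49.4% of all genes). LBR, an inner nuclear membrane protein that is also a sterol reductase with the same activity as TM7SF2, had 123, 118 and 118 CPM with SKP2-1, 76.6, 72.6 and 73.6 CPM with SKP2-2, and 286, 312 and 329 CPM in NC. It was 2.58 times lower with SKP2-1 (log2 fold change -1.36, SE 0.05, adjusted p = 5.62e-10), and with SKP2-2 4.16 times lower (log2 fold change -2.06, SE 0.05, adjusted p = 2.60e-11), the largest change of the 84 genes with that siRNA. With SKP2-1 the largest change was in CH25H, the enzyme that makes an oxysterol from cholesterol, which had 4.60, 5.36 and 4.84 CPM with SKP2-1, 0.370, 0.612 and 0.536 CPM with SKP2-2, and 0.703, 1.13 and 0.825 CPM in NC (with SKP2-1, log2 fold change 2.46, SE 0.17, adjusted p = 1.01e-07, and -0.81, adjusted p = 0.00955, with SKP2-2). The SKP2-2 call of CH25H was lost without NC replicate 2 (-0.60, adjusted p = 0.0568). FAXDC2 (1.55 and 0.65), a sterol oxidase relative, CYP27A1 (0.36 and 0.38), a sterol hydroxylase, and POR (0.32 and 0.54), the electron donor of CYP51A1 and SQLE, rose with both. In a fit of the SKP2-1 and NC libraries alone, the SKP2-1 calls of POR (0.24, adjusted p = 0.0624) and ELOVL1 (0.09, adjusted p = 0.0674) were lost.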

How the data were processed

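RNA-seq was made from 9 MDA-MB-231 libraries, and the authors deposited raw counts per gene for each library, read here without change. The submitters' processing notes name the aligner STAR, the counter HTSeq 0.6.1, Trim Galore 0.4.1 and FastQC 0.11.2 for the reads, and DESeq2 1.16.1. The strand setting of the counting is not given in the sources used here. The rows for reads without a gene or with several (9.27 to 9.79% of all) were left out, which gave 35.5 to 49.9 M counts a library.

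Genes were named from a symbol table or GENCODE 29, and exon lengths, overlaps and transcript GC content come from GENCODE 29 (GRCh38). Normalized CPM used TMM scaling. After a filter (filterByExpr, minimum count 10, minimum total 15) 16575 genes were tested with edgeR 4.0.16 in R 4.3.3, using the quasi-likelihood test with 1 term for group over all 9 libraries and Benjamini-Hochberg adjustment at 0.05. Each SE was worked back from that test, as the absolute log2 fold change divided by the square root of its F statistic. The fit was first tested on simulated counts. It recovered 36.0%, 24.0% and 18.0% of 1.25-fold changes for SKP2-1 against NC, SKP2-2 against NC and SKP2-2 against SKP2-1. Of 1.5-fold changes it recovered 50.0%, 70.0% and 64.0%, so changes of this size can miss the threshold. Few genes were changed in the simulation, so these shares need not hold in these data.

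The alternatives were other scalings, filters, DESeq2 1.42.0, a replicate term, fits of 2 groups and left-out libraries. The 32 genes and the companion lists were chosen with earlier results of these data known. Given per library were the genes that passed with both siRNAs, in opposite directions or between the siRNAs, with others added by choice, and from each companion list at most 4 genes that passed with both in the same direction, by the smaller change, with the largest change for each siRNA. A marker gene is not reported here.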

Additional observations from a re-analysis of the deposited data

Results flagged for a closer look

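The responses of 3 genes to the 2 siRNAs had opposite signs, each past the threshold against NC, and the siRNAs differed past the threshold in a direct comparison (edgeR's quasi-likelihood test). The genes were picked for those opposite calls, made from the same libraries and fit. A difference between the siRNAs was therefore largely set in advance, and its p-values add no separate support. For MYLIP the difference, SKP2-2 minus SKP2-1, was -1.17 on the log2 scale (adjusted p = 2.24e-09), with all 3 SKP2-2 libraries below and all 3 SKP2-1 libraries above the NC range. For MVK it was 0.86 (adjusted p = 0.00106), and the MVK calls against NC were lost in 5 alternatives for SKP2-2 and 9 for SKP2-1 of 17. For SCD it was 0.40 (adjusted p = 2.98e-05), and the SCD call with SKP2-1 was lost in 7 of 17 alternatives. These responses share the NC libraries, and what separates the siRNAs was not tested.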

How the results depend on the processing

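Under 17 alternatives no direction of a called value turned round for the 32 genes, and the total of called genes in each comparison, and of those called with both siRNAs in the same direction, stayed within 1.5 times the value reported. Some of their parts moved further: without NC replicate 3, 8 genes were higher with SKP2-1 (5 reported) and 5 higher with both (3 reported), and opposite calls numbered 1 to 3 over the alternatives (3 reported). Of the 49 calls over the 3 comparisons, 38 held in every alternative that tested them, and of 47 values that missed the threshold 32 missed it in every one. Leaving out 1 library at a time gave 12 to 17 calls with SKP2-1, 14 to 18 with SKP2-2, 14 to 19 between the siRNAs and 8 to 11 with both siRNAs in the same direction, against 15, 17, 17 and 10. The calls over all genes moved too. With SKP2-1 they were 3642 higher and 2994 lower of 16892 without NC replicate 2, and 4254 and 3215 of 16916 without NC replicate 3. The reported fit had 4150 and 3398 of 16575. Correlations of same-numbered libraries of different groups ran from -0.498 to 0.0546. Those of differently numbered libraries ran from -0.197 to 0.502, the highest being NC replicate 1 with SKP2-2 replicate 3. Whether libraries of different groups were paired or shared batches, in this or another order, was not tested. With the replicate number as a block the counts were 13, 15, 16 and 9, and 46, 44 and 38 for the companion genes, against 49, 48 and 45. Over all genes the block gave 3763 higher and 3055 lower with SKP2-1. It gave 3771 and 3730 with SKP2-2 (4184 and 3997 in the reported fit), and 3677 and 3823 between the siRNAs (4175 and 4190). Depth limited ABCG1, at 7 to 21 counts a library, and the spread between libraries limited FASN, MVD, SREBF1 and CYP51A1.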
